A study of Mus musculus with 71 samples.

Results

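The genes described here form the presynaptic vesicle release machinery and its relatives in membrane trafficking, in mouse whole brain after sleep deprivation. Members were all probe sets whose platform annotation gave exactly 1 gene symbol belonging to the synaptotagmins (Syt), syntaxins (Stx), vesicle-associated membrane proteins (Vamp), synapsins (Syn1 to Syn3), complexins (Cplx), the symbols starting Rab3, the synaptic vesicle glycoproteins (Sv2), the syntaxin-binding proteins (Stxbp) and Snap25. This gave 170 probe sets for 74 genes, out of 45037 probe sets tested and 18193 genes named by a single symbol. The pattern Rab3 also takes in Rab30 to Rab39, which are not Rab3 proteins. By a list of core release genes, the members were divided into 68 probe sets of 29 core genes and 102 probe sets of 45 other trafficking genes. The other genes include Rab30 to Rab39 and also some synaptotagmins, syntaxins, Vamp and Stxbp genes. The list was chosen with earlier results of these data known. A total of 26 genes had 1 probe set and the others had up to 6. Of the 170 probe sets, 133 lay above the median probe set, which had a mean level of 5.68 on the log2 scale.

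Male DBA/2J, C57BL/6J and AKR/J mice, 3 inbred strains, aged 12 to 13 weeks, were kept awake for 6 h or left undisturbed as controls, and were killed at zeitgeber time ZT0, ZT6, ZT12 or ZT18, counted in hours from lights on. The 6 h of deprivation ended at the time of death, so the sleep-deprived and control groups of a strain and time were taken at the same clock time. Each array carried RNA of whole brain pooled from 3 mice of 1 group. There were 35 sleep-deprived and 36 control arrays in 24 groups, with 3 arrays in 23 groups and 2 arrays in 1 group. The p-values below measure the spread between these pools. Array medians ran from 5.65 to 5.71 log2 units. In bulk brain RNA, fewer cells of a type and less RNA per cell cannot be told apart.

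Neurotransmitter is released when a vesicle SNARE protein of the Vamp family pairs with syntaxin and Snap25 of the plasma membrane and pulls the membranes together. Synaptotagmins sense the calcium that triggers this fusion, complexins hold the SNARE complex ready, proteins of the Stxbp family bind syntaxin or the SNARE complex, synapsins tether the vesicle reserve, and Rab3 proteins mark vesicles for docking. Related SNAREs and Rab GTPases run the same kind of fusion at the endoplasmic reticulum, Golgi, endosomes and lysosomes in every cell.

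Among the largest falls after sleep deprivation were those of trafficking genes outside the core machinery: the small GTPase gene Rab34, which acts in Golgi, lysosome and cilium traffic, the autophagosome syntaxin gene Stx17 and the brain-expressed Golgi GTPase gene Rab33a. The largest rises were those of Syt7, a high-affinity calcium sensor linked to asynchronous release, on 1 of its 4 probe sets, of the dim probe set of Rab39, and of the trans-Golgi and endosome SNARE gene Vamp4. In all, 39 of the 170 member probe sets (22.9%, from 29 genes) differed between sleep-deprived and control arrays, with 15 higher and 24 lower, at an adjusted p under 0.05. Over all tested probe sets the share was 17.3%, with 8.31% higher and 9.00% lower. Of the members, 133 of 170 lay above the median probe set, and no share matched for level is given here. The estimate is the mean of 12 differences, 1 for each strain and time, from limma with Benjamini-Hochberg adjustment over all tested probe sets. The changes were small: the median size of the difference was 0.04 log2 units in the members and 0.03 over all probe sets, the median difference was -0.01 in the members and -0.0024 over all, and 2 member probe sets reached 0.25.

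**Figure D1:**
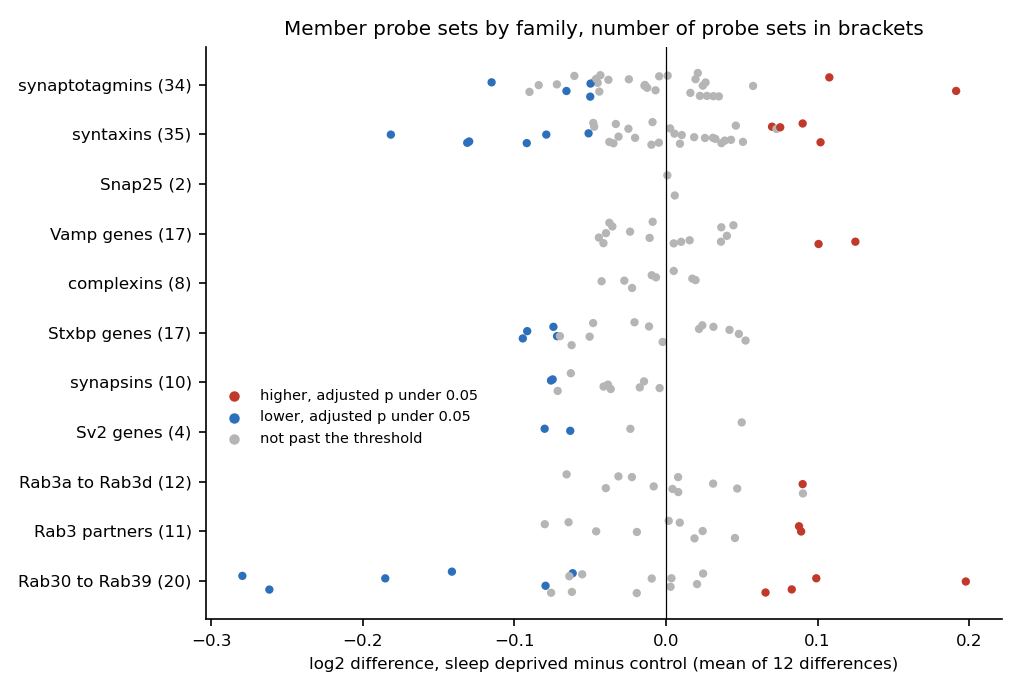
Overall difference between sleep-deprived and control arrays for each of the 170 member probe sets, in log2 units, with 1 row of points per family. Red points were higher and blue points lower at an adjusted p under 0.05, and grey points did not pass. The points of Rab30 to Rab39 reach farthest on both sides, and the complexin and Snap25 points all lie near 0 and did not pass.

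By family, no complexin probe set (0 of 8) and no Snap25 probe set (0 of 2) passed the limma test, and 0 of these 10 had an unadjusted p under 0.05. The synapsins had 2 of 10 lower and none higher, the Sv2 genes 2 of 4 lower, and the Stxbp genes 4 of 17 lower and none higher. The Vamp genes had 2 of 17 higher, both of Vamp4. The synaptotagmins had 2 higher and 4 lower of 34, and the syntaxins 4 higher and 6 lower of 35. Rab3a to Rab3d had 1 of 12 higher, and the genes named as Rab3 partners (Rab3gap1, Rab3gap2, Rab3il1 and Rab3ip) had 2 of 11 higher. Rab30 to Rab39 had 10 of 20 called, 4 higher and 6 lower. Of the core probe sets, 10 of 68 were called (14.7%, 2 higher and 8 lower), against 29 of 102 probe sets of the other trafficking genes (28.4%, 13 higher and 16 lower). The difference between these shares was not tested. The list of core genes was chosen with earlier results of these data known, so the shares are a description only.

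The proximal sequences of 3 of the most changed genes are shown because their RNA levels also moved over the day, as described further on. Each window covers 250 bases before to 50 bases after a RefSeq transcript start in GRCm38.p6, and 58 of the 74 member genes had at least 1 window, 79 in all. Capitals mark an E-box, CACGTG, the clock-factor motif, which was searched on both strands. The windows are those of Rab34 (chr11:78188177-78188476, plus strand), Rab33a (chrX:48519035-48519334, plus strand) and Vamp4 (chr1:162570265-162570564, plus strand). Rab34 and Vamp4 each have a further annotated start whose window is not printed.
Rab34: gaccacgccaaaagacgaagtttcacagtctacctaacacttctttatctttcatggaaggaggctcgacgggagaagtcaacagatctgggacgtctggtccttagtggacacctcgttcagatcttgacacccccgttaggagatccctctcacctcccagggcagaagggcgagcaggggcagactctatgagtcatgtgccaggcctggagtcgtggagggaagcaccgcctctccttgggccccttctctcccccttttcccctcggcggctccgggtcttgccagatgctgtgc
Rab33a: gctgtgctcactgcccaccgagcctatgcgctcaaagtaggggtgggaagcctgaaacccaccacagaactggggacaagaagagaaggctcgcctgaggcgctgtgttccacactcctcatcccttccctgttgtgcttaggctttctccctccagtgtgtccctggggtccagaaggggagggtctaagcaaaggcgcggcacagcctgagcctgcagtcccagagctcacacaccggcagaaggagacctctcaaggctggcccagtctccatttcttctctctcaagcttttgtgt
Vamp4: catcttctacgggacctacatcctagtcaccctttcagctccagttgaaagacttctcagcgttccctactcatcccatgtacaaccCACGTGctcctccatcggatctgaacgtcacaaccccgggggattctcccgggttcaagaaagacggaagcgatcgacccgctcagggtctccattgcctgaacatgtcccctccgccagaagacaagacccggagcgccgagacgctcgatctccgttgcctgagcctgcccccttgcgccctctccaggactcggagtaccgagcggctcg
The E-box was present in the printed Vamp4 window and not in those of Rab34 and Rab33a. The further windows of Vamp4 and Rab34 had no E-box. This motif occurred in 11 of the 79 member windows, of 9 genes, and in 7.15% of all 32851 promoter windows of the table. The cyclic AMP response element, TGACGTCA, occurred in the windows of Stxbp3 and Syn1 and in 1.79% of all windows. The D-box, TTATGTAA, was in no member window, against 0.938% of all windows. None of these motifs overlapped another in the windows printed. A match is a description of the letters and not evidence of binding.

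Rab34 fell on both of its probe sets. On 1416591_at its level ran from 7.56 to 8.10 with a median of 7.78 in the 35 sleep-deprived arrays, against 7.73 to 8.43 with a median of 8.06 in the 36 control arrays. The ranges overlapped. The difference was -0.26 ± 0.02 log2 units (SE over 71 arrays; limma adjusted p = 2.67e-15), which is 0.834-fold, and it was lower in 12 of 12 strain-by-time pairs. On 1416590_a_at it was -0.28 ± 0.02 (limma adjusted p = 6.10e-15), lower in 12 of 12 pairs, so that separate probe sets of this gene moved alike.

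Stx17, the syntaxin that fuses autophagosomes with lysosomes, was lower on all 4 of its probe sets. Probe set 1428917_at ran from 7.51 to 8.12 with a median of 7.67 in sleep-deprived arrays, against 7.54 to 8.10 with a median of 7.92 in control arrays. Its difference was -0.18 ± 0.02 (limma adjusted p = 1.44e-08), lower in 11 of 12 pairs. The other 3 differed by -0.13 (1431929_a_at, lower in 12 of 12 pairs), -0.08 and -0.13 (both dimmer), with adjusted p up to 0.0119.

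Rab33a had 1 probe set, which ran from 9.08 to 9.34 with a median of 9.20 in sleep-deprived arrays, against 9.08 to 9.52 with a median of 9.34 in control arrays. The difference was -0.14 ± 0.02 (limma adjusted p = 1.67e-08), lower in 10 of 12 pairs. Control arrays were spread more widely, with an SD of 0.124 over all times, than sleep-deprived arrays, with an SD of 0.0635. Its relative Rab33b, a Golgi GTPase that binds the autophagy protein Atg16L, was lower by a smaller amount (-0.06, adjusted p = 4.10e-03) and is named here after its value was seen.

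Rab30, another Golgi GTPase, was called in opposite directions on its probe sets: -0.19 ± 0.03 on 1440325_at (adjusted p = 7.26e-06) and 0.10 ± 0.03 on 1426452_a_at (adjusted p = 5.17e-03), so no single direction can be given for the gene. Amisyn (Stxbp6), which binds syntaxin and restrains SNARE assembly, was lower by -0.09 ± 0.02 on 1435396_at (adjusted p = 3.00e-04) and not called on its dimmer probe set (0.04). Syt16, a synaptotagmin that does not bind calcium, was lower by -0.12 ± 0.02 in 11 of 12 pairs (adjusted p = 3.17e-04).

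Syt7 rose on probe set 1439633_at. Its level ran from 8.91 to 9.54 with a median of 9.10 in sleep-deprived arrays, against 8.58 to 9.37 with a median of 8.91 in control arrays. The difference was 0.19 ± 0.02 (1.14-fold; limma adjusted p = 4.06e-10), higher in 12 of 12 pairs. The other 3 probe sets of Syt7 were not called, with differences of 0.02, -0.07 and -0.01, so the rise was seen on 1 of the probe sets named for the gene.

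Vamp4 was higher on 2 of 3 probe sets. On 1422895_at it ran from 10.06 to 10.43 with a median of 10.28 in sleep-deprived arrays, against 9.96 to 10.39 with a median of 10.16 in control arrays, a difference of 0.10 ± 0.02 (limma adjusted p = 1.47e-06) seen in 11 of 12 pairs. On 1422896_at it was 0.12 ± 0.03 (adjusted p = 1.39e-04), and on 1434796_at -0.04 (adjusted p = 0.126). Stx18, a SNARE of the endoplasmic reticulum, was higher on 3 of 5 probe sets, by 0.09 ± 0.02 on 1425011_x_at (adjusted p = 7.05e-05), a type of probe set that can match several transcripts, and by 0.08 and 0.10 on the others called.

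Rab39 had the largest estimate among the rises: it differed by 0.20 ± 0.03 (adjusted p = 1.23e-06), higher in 11 of 12 pairs, at a mean level of 3.86 that is below the median probe set. Of the smaller rises, that of Syt13, an atypical synaptotagmin, was 0.11 ± 0.02 on 1434470_at (adjusted p = 8.82e-04) and not called on its other probe set (0.03). Rab3ip, which encodes the exchange factor Rabin8, was higher by 0.09 ± 0.02 on 1434306_at (adjusted p = 2.12e-03) and not called on the other (0.02). Rab31, a GTPase of the trans-Golgi and endosomes, was higher on both of its probe sets, by 0.07 and 0.08 (adjusted p = 2.30e-03 and 0.016).

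On the brightest probe set of each gene, 5 of the 29 core genes were called, all lower: Syt1, Syt9, Syn3, Sv2a and Sv2b. This is 17.2%, against 17.3% of all tested probe sets, which also include dimmer probe sets and those without a gene symbol. No share matched for level is given here. The median size of the difference was 0.02 log2 units in these 29, against 0.03 over all. Snap25, the plasma membrane SNARE, differed by 0.01 (95% interval -0.03 to 0.04, adjusted p = 0.901). Cplx1 differed by 0.01 (-0.03 to 0.04, adjusted p = 0.899), and Cplx2 by -0.04 (-0.0951 to 0.01, adjusted p = 0.324) on an _s_at probe set, which can also match other transcripts. Each of these intervals leaves out a change of 0.1 in size. Vamp2, the main vesicle SNARE, differed by -0.02 with a wider interval, from -0.14 to 0.09 (adjusted p = 0.857). The other probe sets of Snap25, Cplx1, Cplx2 and Vamp2 differed by -0.03 to 0.02 and were not called.

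Syt1, the fast calcium sensor, fell by 0.05 on the log2 scale (interval -0.08 to -0.02, adjusted p = 0.0132), which is 0.966-fold, lower in 10 of 12 pairs. Its mean level was 12.80 in sleep-deprived arrays and 12.85 in control arrays. The other probe sets of Syt1 differed by -0.05 to -0.04 and were not called. Stx1a, the plasma membrane syntaxin, differed by -0.03 (-0.06 to -0.0040, adjusted p = 0.118) and did not pass after adjustment. Rab3a differed by -0.01 (-0.06 to 0.04, adjusted p = 0.890). Both Stx1a and Rab3a were read on _x_at probe sets, and their other probe sets, at 0.01 and -0.02, were not called.

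Of the vesicle proteins, Sv2a, the binding site of the antiepileptic levetiracetam, differed by -0.08 ± 0.03 (adjusted p = 0.0493), close to the threshold: the adjusted p was 0.0544 with replicate number as a block, and it was over 0.05 in 49 of 71 fits that left out 1 array, up to 0.0806. Syn1 differed by -0.04 (-0.09 to 0.02, adjusted p = 0.401) and Syn2 by -0.02 (-0.07 to 0.04, adjusted p = 0.780). On 1435511_at, however, Syn2 was lower by -0.08 (limma adjusted p = 0.00864), in 11 of 12 pairs. The remaining probe sets of Syn2 were not called. Core genes named after their values were seen were Sv2b (-0.06, adjusted p = 2.92e-03) and Syn3 (-0.07 on an _s_at probe set, adjusted p = 3.77e-04), each lower in 12 of 12 pairs, and tomosyn (Stxbp5), an inhibitor of SNARE assembly, lower on 2 of 3 probe sets (-0.09 and -0.07, adjusted p = 2.41e-03 and 8.84e-03).

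**Figure D2:**
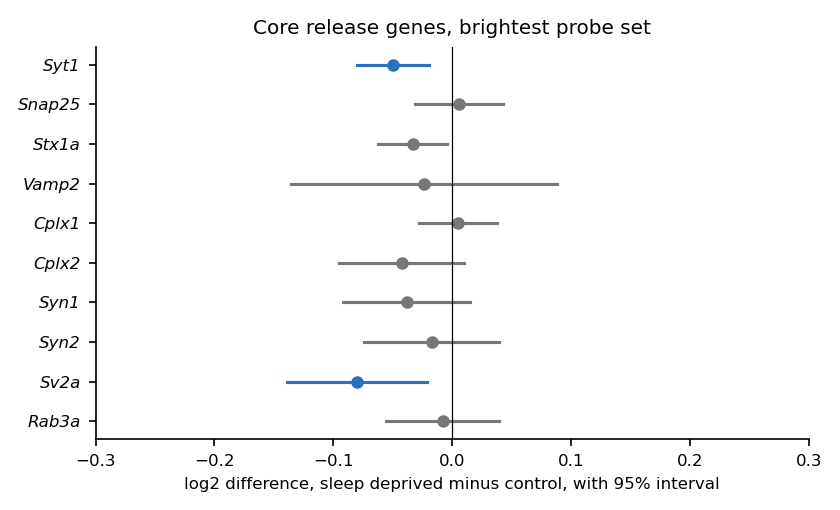
Differences between sleep-deprived and control arrays for 10 core release genes, each on its brightest probe set, in log2 units with 95% intervals. Syt1 and Sv2a (blue) passed an adjusted p under 0.05, and the other intervals shown in grey all lie within 0.14 of 0.

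Partners of the release machinery that are not members were read in the same way, and the shares of all again cover probe sets of every level. Of 53 measured genes of the active zone, priming and vesicle recycling, each on its brightest probe set, 13 were called (24.5%, against 17.3% of all), 6 higher and 7 lower (8.31% and 9.00% of all). Snapin, which binds Snap25, fell by 0.13 (adjusted p = 8.03e-09), as did Doc2a by 0.12 (adjusted p = 1.67e-04) and the active zone scaffold Pclo by 0.08 (adjusted p = 2.65e-04). The scaffold Erc1 was higher by 0.13 (adjusted p = 3.02e-07), Doc2b by 0.10 (adjusted p = 1.32e-04) and the priming factor Unc13a by 0.11 (adjusted p = 9.78e-04). Thus the related calcium-binding proteins Doc2a and Doc2b were called in opposite directions.

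Cell type markers were read on the brightest probe set of each gene. Of 10 neuronal markers 3 were higher, of 7 oligodendrocyte markers 4 were lower, and of 8 astrocyte markers none was called by limma (1 at an unadjusted p under 0.05). Of 8 microglial and 7 endothelial markers, 2 were higher and 1 was lower in each list, and of 7 cerebellar markers 1 was lower. Over all tested probe sets, of every level, 8.31% were higher and 9.00% lower. Oligodendrocyte markers summed to a log2 level of 14.6 to 14.9 in sleep-deprived and 14.6 to 15 in control arrays, and neuronal markers to 14.3 to 14.6 and 14.3 to 14.7. No pituitary hormone gene of 7 was called (0 at an unadjusted p under 0.05), but their summed log2 level ran from 7.95 to 13.9 in sleep-deprived and from 7.97 to 14.2 in control arrays. With the mean log2 level of Gh, Prl and Pomc as a covariate, 39 member probe sets were called, 38 of them the same and with the same sign. On spike-in control probe sets, 6 arrays stood apart, at 6.76 to 7.02 against 7.49 to 8.15 in the other 65. They were replicate 3 of AKR/J control at ZT0 and at ZT6, and replicate 3 of both C57BL/6J conditions at ZT0. Sleep-deprived C57BL/6J at ZT6 gave replicates 1 and 3. None was of DBA/2J or taken at ZT12 or ZT18, so they were spread unevenly over strains, times and conditions. Without these 6 arrays 40 members were called, 35 of them the same. The part of the neuronal and oligodendrocyte markers in the members' differences was not tested.

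The response depended on the time of day for some members. At ZT0, 4 member probe sets were called (1.71% of all tested probe sets were called at that time), at ZT6 23 (10.4% of all), at ZT12 19 (9.75% of all) and at ZT18 0 (0.0777% of all, with 10 members at an unadjusted p under 0.05 in limma). The count at ZT0 ran from 1 to 7 when single arrays were left out, with 1 call without AKR/J control ZT0 replicate 3. That at ZT6 was 14 without C57BL/6J sleep deprived ZT6 replicate 3. Both of these arrays were among the 6 that stood apart on spike-ins. A direct test of whether the difference varied over the times called 4 member probe sets (2.35%, against 1.40% of all): both of Rab34, 1 of Rab31 and that of Rab33a.

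At ZT6, Rab34 on 1416591_at ran from 7.73 to 8.10 in the 9 sleep-deprived arrays (median 7.89) and from 8.0 to 8.43 in the 9 control arrays (median 8.25). At ZT12 it ran from 7.65 to 8.02 (median 7.84) in sleep-deprived arrays and from 8.11 to 8.41 (median 8.15) in control arrays. The groups overlapped slightly at ZT6 and not at all at ZT12. In C57BL/6J at ZT12, the 3 sleep-deprived arrays of Rab34 stood at 7.72, 7.78 and 7.75, against 8.13, 8.15 and 8.11 in the 3 controls. The differences were -0.15 at ZT0, -0.37 at ZT6, -0.37 at ZT12 and -0.16 at ZT18 (adjusted p = 0.036, 9.36e-10, 5.53e-10 and 0.216), with an adjusted p of 9.99e-03 for the variation over times (limma F test). Without the 6 arrays that stood apart on spike-ins the call at ZT0 did not pass (adjusted p = 0.0774), nor did it in 10 of 71 fits that left out 1 array.

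Control mice had the same gene at different levels over the day. Mean levels of Rab34 were 7.76 at ZT0, 7.88 at ZT6, 7.83 at ZT12 and 7.65 at ZT18 in sleep-deprived mice, against 7.91, 8.25, 8.21 and 7.81 in controls. The range of these means was 0.44 in controls (adjusted p = 5.91e-14 for time of day), and the time of day also passed in sleep-deprived mice (adjusted p = 1.58e-03). The controls thus stood highest at ZT6 and ZT12, the times at which the 2 conditions lay farthest apart. Both statements use the same control arrays.

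Rab33a gave a flatter picture. Its means were 9.21, 9.21, 9.19 and 9.20 at ZT0, ZT6, ZT12 and ZT18 in sleep-deprived mice, a range of 0.02, against 9.28, 9.42, 9.42 and 9.25 in controls, a range of 0.18. The time of day was called in controls (adjusted p = 5.55e-05) and was not among the calls in sleep-deprived mice. The differences at the 4 times were -0.07, -0.21, -0.24 and -0.04, and their variation passed narrowly (adjusted p = 0.0373): it did not pass with quantile normalization or without the 6 arrays (adjusted p up to 0.0756), nor in 27 of 71 fits that left out 1 array.

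Syt7 on 1439633_at was lowest in controls when Rab34 was high. Its means on 1439633_at were 9.14, 9.18, 9.05 and 9.09 at ZT0, ZT6, ZT12 and ZT18 in sleep-deprived mice, against 9.02, 8.90, 8.80 and 8.98 in controls. The differences were 0.12, 0.28, 0.25 and 0.11, called at ZT6 (adjusted p = 1.82e-06) and ZT12 (adjusted p = 1.58e-05). The variation of the Syt7 difference over times did not pass. Brighter probe sets of Syt7 ran otherwise in controls. On 1441927_at the control means were 9.38, 9.46, 9.52 and 9.47 at the same times, highest at ZT12. On 1460081_at they were 9.76, 9.78, 9.68 and 9.67, highest at ZT6. Rab31 differed by 0.19 at ZT0 and 0.23 at ZT12 on 1431691_a_at, but by -0.05 at ZT6 and -0.04 at ZT18, and only those at ZT0 and ZT12 were called (adjusted p = 0.0331 and 8.73e-04). The Rab31 call at ZT0 did not pass without the 6 arrays that stood apart on spike-ins (adjusted p = 0.0892), nor in 11 of 71 fits that left out 1 array (up to 0.109). The brighter Rab31 probe set 1416165_at did not alternate in this way. Its means at ZT0, ZT6, ZT12 and ZT18 were 8.88, 8.99, 8.96 and 8.86 in sleep-deprived mice. In controls they were 8.82, 8.90, 8.88 and 8.84. It was called at ZT6, and its variation over times was not called.

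**Figure D3:**
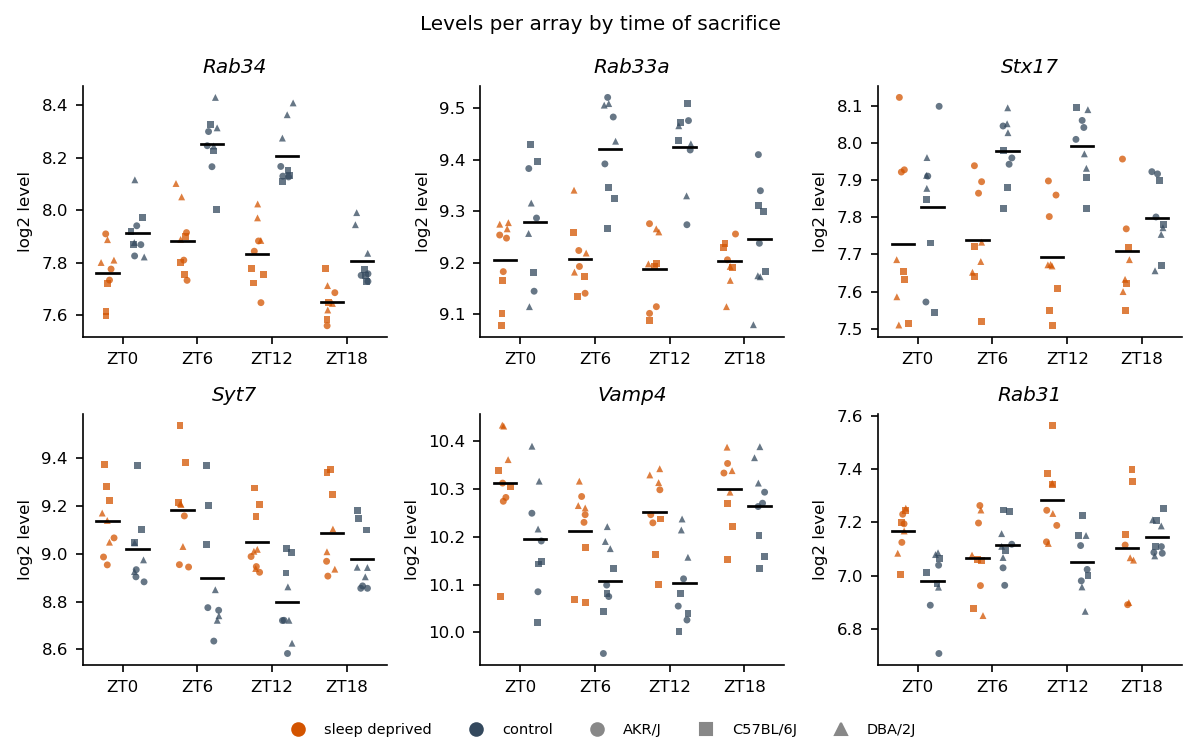
Log2 level on each array by time of sacrifice for Rab34, Rab33a, Stx17, Syt7, Vamp4 and Rab31, with sleep-deprived arrays (orange) left of controls (dark blue), a symbol for each strain and a bar at the mean of the strain means. Each gene is shown on a single probe set. Control levels of Rab34, Rab33a and Stx17 are highest at ZT6 and ZT12, while those of Syt7 and Vamp4 are lowest there. Not every other probe set of Syt7 and Vamp4 was lowest at these times. The sleep-deprived means of Rab33a stay between 9.19 and 9.21.

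Time of day was called in controls for 29 of 170 member probe sets (17.1%, against 11.7% of all), 6 of 68 in core genes and 23 of 102 in the other trafficking genes. In sleep-deprived mice 4 were called (2.35%, against 1.42% of all): 1 of Rab34, 1 of Stx18 and 2 of Rab31. Whether the time course itself differed between conditions is the test given above, with 4 calls. Vamp4 on 1422895_at had control means of 10.20, 10.11, 10.10 and 10.26 at ZT0, ZT6, ZT12 and ZT18 (adjusted p = 1.18e-04). Stx18 on 1425011_x_at stood at 8.47, 8.39, 8.44 and 8.61 (adjusted p = 2.25e-05). Both were highest at ZT18, the opposite phase to Rab34.

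Cplx3, a complexin of ribbon synapses and some cortical neurons, had control means of 6.64, 6.78, 6.91 and 6.77 at the 4 times (adjusted p = 6.66e-04) and was not called for sleep deprivation. Stxbp4, also called Synip, stood at 8.10, 8.02, 7.98 and 8.17 on 1451063_at (adjusted p = 7.14e-04). Stx17 on 1428917_at, named for its fall above, had control means of 7.83, 7.98, 7.99 and 7.80 (adjusted p = 9.96e-04), highest at ZT6 and ZT12 like Rab34.

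Within strains, 12 member probe sets were called for sleep deprivation in AKR/J (5.85% of all tested), 11 in C57BL/6J (6.45% of all) and 16 in DBA/2J (6.90% of all). Rab34 on 1416591_at differed by -0.24 in AKR/J, -0.28 in C57BL/6J and -0.27 in DBA/2J, each called, and Syt7 on 1439633_at by 0.19, 0.17 and 0.21, each called. No member passed the limma test of a difference in response between the strains (0 of 170, with 19 at an unadjusted p under 0.05, against 0.0222% of all called). Without AKR/J control ZT0 replicate 2 the count was 1.

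The smallest p in that test was that of Stx17 on 1428917_at (unadjusted p = 2.85e-04, adjusted p = 0.185). In AKR/J this probe set ran from 7.77 to 8.12 (median 7.90) in the 11 sleep-deprived arrays and from 7.57 to 8.10 (median 7.95) in controls. It ran from 7.51 to 7.72 (median 7.61) in sleep-deprived C57BL/6J against 7.54 to 8.10 (median 7.84) in controls. In DBA/2J it ran from 7.51 to 7.73 (median 7.67) in sleep-deprived arrays against 7.66 to 8.10 (median 7.95) in controls. Its differences were -0.04, -0.23 and -0.28, and those between strains did not pass after adjustment. The next were Rab3gap2 on 1436272_at (adjusted p = 0.439), a subunit of the enzyme that switches off Rab3, and Syt3 (adjusted p = 0.459).

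More member probe sets were called between strains than between conditions. In controls, 63 member probe sets differed between DBA/2J and C57BL/6J (37.1%, 40 higher and 23 lower, against 23.2% of all, 13.6% higher and 9.55% lower), 44 between DBA/2J and AKR/J (25.9%, 23 higher and 21 lower, against 17.3% of all, 9.01% higher and 8.30% lower) and 67 between C57BL/6J and AKR/J (39.4%, 28 higher and 39 lower, against 22.9% of all, 9.74% higher and 13.1% lower). These 3 comparisons share their control arrays. Strain values are signals of probe sets, and whether a difference came from RNA level or from binding to the probes was not tested. The median size of the difference was 0.08, 0.06 and 0.08 in the members, against 0.06, 0.05 and 0.06 over all probe sets.

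Syt13 on 1451045_at gave the largest strain difference among the members. It ran from 8.43 to 8.83 (median 8.57) in the 12 DBA/2J control arrays and from 8.25 to 8.81 (median 8.68) in C57BL/6J, against 6.53 to 7.26 (median 7.01) in AKR/J. The AKR/J arrays did not overlap with the others. The differences from AKR/J were 1.62 (DBA/2J, adjusted p = 2.18e-30) and 1.69 (C57BL/6J, adjusted p = 3.84e-31). On its other probe set they had the same sign and were 0.29 and 0.32.

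Syt4, an atypical synaptotagmin of dense-core vesicles and the Golgi, ran on 1415844_at from 9.67 to 9.97 (median 9.80) in DBA/2J and from 9.38 to 9.82 (median 9.69) in C57BL/6J, against 8.47 to 9.00 (median 8.68) in AKR/J. The differences from AKR/J were 1.11 and 0.97 (adjusted p = 8.77e-28 and 5.99e-25). On 1415845_at they were 0.23 (adjusted p = 3.36e-03) and 0.12 (adjusted p = 0.160). Syt4 therefore differed on both probe sets in 1 of these comparisons, by very different amounts.

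Syt11, a synaptotagmin that does not trigger fusion in response to calcium, was lower outside AKR/J. On 1449264_at it ran from 11.06 to 11.39 (median 11.19) in DBA/2J and from 11.05 to 11.30 (median 11.18) in C57BL/6J, against 11.46 to 11.69 (median 11.64) in AKR/J, without overlap. The differences were -0.42 and -0.46 (adjusted p = 7.75e-18 and 2.49e-19). Probe sets 1429314_at and 1456464_x_at gave -0.43 and -0.37 for DBA/2J, and -0.55 and -0.51 for C57BL/6J, so 3 of its 5 probe sets agreed closely. Of the other 2, 1429315_at was lower in C57BL/6J alone (-0.33) and 1455176_a_at was not called.

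Vamp3, or cellubrevin, the endosomal relative of Vamp2, was lower in DBA/2J. On 1437708_x_at it ran from 7.76 to 8.16 (median 8.01) in DBA/2J, against 9.07 to 9.38 (median 9.29) in C57BL/6J and 9.11 to 9.45 (median 9.28) in AKR/J. The differences were -1.29 and -1.30 (adjusted p = 7.86e-34 and 4.78e-34). The other 4 probe sets of Vamp3 had the same sign and lay between -0.25 and -0.06, so the size belongs to 1 probe set.

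Stx6, a trans-Golgi syntaxin, showed the same kind of disagreement. On 1441133_at it ran from 4.74 to 5.17 (median 4.88) in DBA/2J, against 5.66 to 5.96 (median 5.82) in C57BL/6J and 5.62 to 6.01 (median 5.75) in AKR/J. The differences were -0.91 and -0.87 (adjusted p = 8.48e-19 and 6.16e-18), while the other 5 probe sets of Stx6 lay between -0.16 and 0.09. That probe set was dim, and no common size can be given for the gene.

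**Figure D4:**
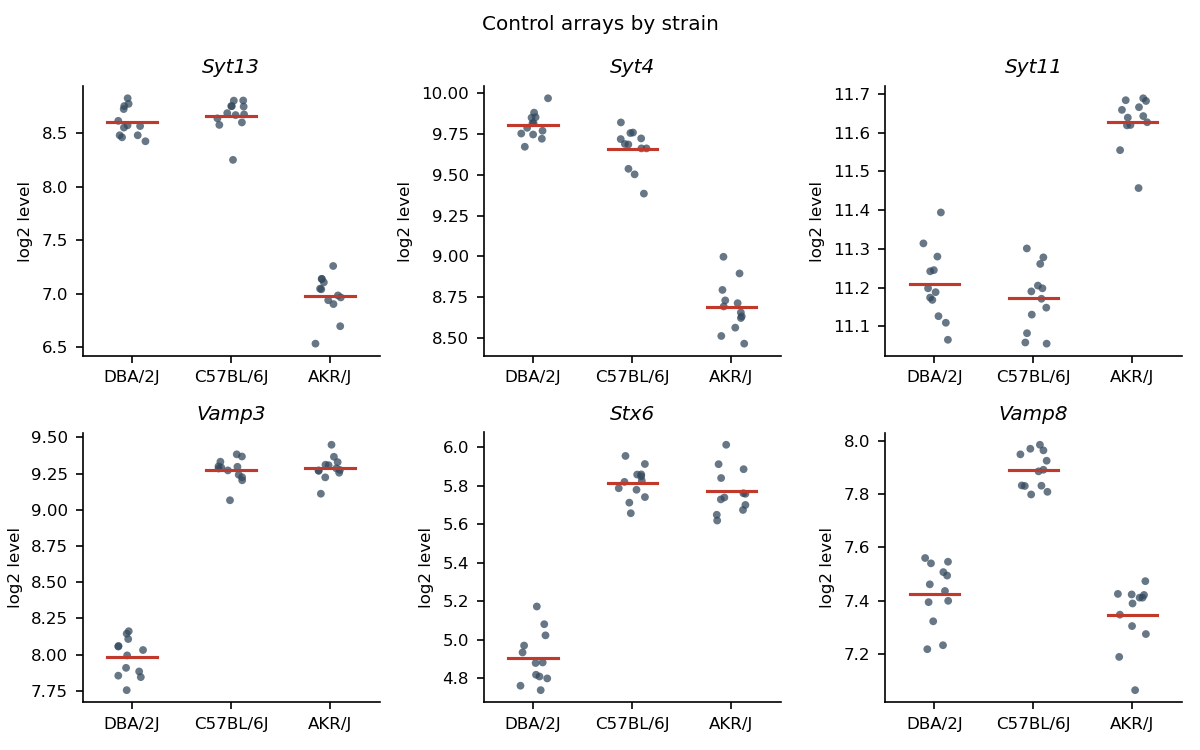
Log2 level on each of the 12 control arrays of DBA/2J, C57BL/6J and AKR/J for 1 probe set each of Syt13, Syt4, Syt11, Vamp3, Stx6 and Vamp8, with a bar at the mean. AKR/J stands apart for the synaptotagmins shown, DBA/2J for Vamp3 and Stx6, and C57BL/6J for Vamp8.

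C57BL/6J stood apart for Vamp8, or endobrevin, a SNARE of late endosomes. It ran from 7.22 to 7.56 (median 7.45) in DBA/2J, from 7.80 to 7.99 (median 7.89) in C57BL/6J and from 7.06 to 7.47 (median 7.40) in AKR/J. The difference was -0.46 for DBA/2J minus C57BL/6J (adjusted p = 2.87e-13) and 0.55 for C57BL/6J minus AKR/J (adjusted p = 7.94e-16). Rab3gap1, the catalytic subunit of the Rab3 GTPase-activating enzyme, had the opposite order, with 0.39 for DBA/2J minus C57BL/6J and -0.35 for C57BL/6J minus AKR/J (adjusted p = 2.89e-14 and 1.05e-12). Stxbp4 on 1442267_at differed by 0.65 and -0.66 in the same 2 comparisons (adjusted p = 2.18e-14 and 1.96e-14), and 2 further probe sets of the gene were called in the same directions.

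Core genes also differed between strains. Sv2c on 1453715_at, a dim probe set, was higher in DBA/2J than in C57BL/6J by 0.52 (adjusted p = 4.10e-08), and Syt2, a fast calcium sensor of hindbrain synapses, was lower on 1420418_at by -0.49 (adjusted p = 2.58e-07), while its other 2 probe sets differed by 0.24 and -0.08. Syn2 on 1460230_at was higher than in AKR/J by 0.38 in DBA/2J and 0.36 in C57BL/6J (adjusted p = 1.59e-12 and 1.27e-11), and on 1449030_at by 0.23 and 0.25, but lower on 1435511_at by -0.20 and -0.11, so its probe sets did not point one way. The 3 probe sets of Cplx1, named after their values were seen, were higher in DBA/2J than in C57BL/6J by 0.13 to 0.15 (adjusted p up to 6.37e-04). Neither of the 2 Snap25 probe sets was called in any of the 3 strain comparisons, with differences between -0.11 and 0.11 (adjusted p from 0.101).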

How the data were processed

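RNA of whole mouse brain was hybridised to 71 1-colour Affymetrix arrays. The authors deposited log2 values normalized with RMA, per the submitters' processing notes; no version or settings are given in the sources read, and no scanner values entered. The 64 control probe sets were left out of the tests. Of 45037 probe sets, 34945 had 1 gene symbol, 932 several and 9160 none; all 170 members matched a current gene by Entrez number, with unchanged symbols.

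A limma model (limma 3.58.1, R 4.3.3) with 1 mean per group gave all comparisons, with Benjamini-Hochberg adjustment over all tested probe sets and calls at an adjusted p under 0.05. The script was tested on made data with known answers. The number of arrays limits the precision, and probe sets of different genes were not compared in level. The members and gene lists were chosen with earlier results of these data known. Named were up to 8 called probe sets per direction and comparison by smallest p, 10 core genes on their brightest probe set, and up to 6 partners. Promoter windows are from RefSeq, GRCm38.p6.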

Additional observations from a re-analysis of the deposited data

Results flagged for a closer look

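The difference between sleep-deprived and control arrays varied over the 4 times for 4 member probe sets, by the limma F test of the variation. The adjusted p was 0.00999 for Rab34 on 1416591_at, 0.0204 for Rab34 on 1416590_a_at, 0.014 for Rab31 on 1431691_a_at and 0.0373 for Rab33a. For Rab34 and Rab33a, differences were negative at all 4 times and largest at ZT6 and ZT12. For Rab31 on 1431691_a_at they were 0.19 at ZT0, -0.05 at ZT6, 0.23 at ZT12 and -0.04 at ZT18. On its brighter probe set 1416165_at, sleep-deprived means lay above control means at all 4 times, and the variation was not called. Over all tested probe sets, 1.40% were called in this test. Groups held 2 or 3 arrays, so outlying arrays were not sought within groups. Fits that left out 1 array at a time are described below.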

How the results depend on the processing

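Of 39 member probe sets called over all strains and times, quantile normalization kept 38 of its 40 calls in common, a model with trend and robust settings 39 of 40, and the spike-in batch as a block 39 of 49. With replicate number as a block, 37 were called and all 37 were shared. Replicate numbers were not taken as pairs, since the correlation of same-numbered deviations ran from -0.275 to 0.603 over 35 pairs, with 6 over 0.1. In C57BL/6J at ZT0 all 3 pairs were over 0.1 (0.369, 0.228 and 0.603), and both replicate 3 arrays there stood apart on spike-ins (6.89 in the sleep-deprived and 6.77 in the control array). With 1 probe set per gene, 23 of 74 genes were called. The share over all genes in that fit is not given here, so this count has no background to be read against. With only probe sets above the median level, 17 were called in C57BL/6J against 11, and 8 at ZT0 against 4, with fewer probe sets tested. Without the 6 arrays that stood apart on spike-ins, time of day in sleep-deprived mice gave 1 call against 4; the cause was not tested. The other 102 counts stayed within 1.5 times, and no named result changed sign.

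With single arrays left out, calls ran from 35 to 43 over all strains and times, 8 to 15 in AKR/J, 7 to 13 in C57BL/6J (7 without C57BL/6J control ZT0 replicate 2), 12 to 19 in DBA/2J, 1 to 7 at ZT0, 14 to 25 at ZT6, 17 to 21 at ZT12 and 0 at ZT18. They ran from 58 to 65 for DBA/2J minus C57BL/6J, 41 to 46 for DBA/2J minus AKR/J and 57 to 67 for C57BL/6J minus AKR/J. The test of strain by sleep deprivation gave 0 to 1, time by sleep deprivation 2 to 5 (2 without AKR/J sleep deprived ZT18 replicate 2), time of day in controls 24 to 35 and in sleep-deprived mice 1 to 7 (1 without AKR/J sleep deprived ZT18 replicate 2). For Rab34 on 1416590_a_at, the variation over times failed in 1 of 71 such fits (adjusted p up to 0.0716).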
